A study of Rattus norvegicus with 4 samples.

Results

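The genes of the cytosolic ribosome were followed in cultured rat aortic smooth muscle cells given interleukin-1 beta (IL-1b) or its vehicle. Members were the probe sets whose platform annotation gave 1 gene symbol that began with Rpl or Rps and a digit, or was Rpsa or Rplp0 to Rplp2, leaving out the S6 kinases. There were 50 such genes of 14217 with a probe set of 1 symbol, measured by 57 probe sets of 20826 with 1 symbol and 31099 in the table. The cells came from Sprague-Dawley rats, grew for 5 days with 10% serum and were then kept serum-free for 3 days. Then 2 samples had IL-1b, an inflammatory cytokine, at 2.5 ng/mL for 24 hours, and 2 samples had the vehicle, 0.1% bovine serum albumin, for as long. Each sample had its own array, and no label says whether the samples of a group were separate cultures, so the p-values below can reflect technical spread alone.

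A ribosome joins a small subunit, which decodes the messenger RNA, to a large subunit, which makes the peptide bond, and each ribosomal protein is needed in about equal amounts with the others. Their transcripts are among the most abundant in growing cells. They begin with a run of pyrimidines, the 5′ terminal oligopyrimidine (TOP) tract, through which the kinase mTOR adjusts their translation to nutrients and growth factors, and mammalian genomes hold many processed copies of these genes that can share probes with them.

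To look for runs of pyrimidines near the annotated start, promoter sequences from RefSeq (build GRCr8) were matched to 43 of the 50 symbols. The longest unbroken run of C or T was searched on the gene's own strand in the window from 20 bases before to 20 bases after the annotated start. A run of at least 8 such bases was found in 28 of the 43 genes (65.1%), against 15.5% of 27457 promoters in the table. Such a run could lie wholly before or after the annotated start, so this is not a count of TOP tracts. The word CCGGAAG, a core recognised by ETS factors, was searched on both strands from 250 bases before to 50 after the start and was present in 10 of the 43 genes (23.3%), against 9.22% of all promoters. Its reverse complement begins with C and T bases and can overlap a run. A match describes the letters at the annotated start and no binding or use of it. The 6 windows below run from 30 bases before the start to 20 bases of the transcript, 5′ to 3′, with the longest run of C or T in capitals. These windows are shown because their genes span the range of array values described next, with Rpl19 and Rpl27a near its top and Rpl13a and Rpl21 near its bottom. In Rpl13a and Rpl21 the run ends before the annotated start. All 6 windows hold a run of at least 8, which 28 of the 43 genes had, so genes without one are not shown. They are Rpl19 at chr10:83519034-83519083 on the plus strand, Rpl27a at chr1:172974543-172974592 on the plus strand, Rplp0 at chr12:46718371-46718420 on the minus strand, Rps23 at chr2:23814487-23814536 on the plus strand, Rpl13a at chr1:104748894-104748943 on the minus strand and Rpl21 at chr12:13386134-13386183 on the minus strand.
Rpl19: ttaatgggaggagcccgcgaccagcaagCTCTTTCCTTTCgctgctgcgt
Rpl27a: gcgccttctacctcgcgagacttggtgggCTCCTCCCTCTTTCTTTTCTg
Rplp0: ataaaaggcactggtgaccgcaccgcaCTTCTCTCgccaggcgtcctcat
Rps23: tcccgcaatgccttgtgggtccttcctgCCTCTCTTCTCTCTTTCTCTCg
Rpl13a: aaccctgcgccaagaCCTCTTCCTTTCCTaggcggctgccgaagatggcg
Rpl21: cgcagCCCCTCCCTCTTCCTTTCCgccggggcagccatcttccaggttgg

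The deposited values are MAS5 intensities on a linear scale, and on each array their mean after trimming 2% of probe sets at each end was 250.1. The first IL-1b array differed from the rest in its hybridisation and bacterial controls. Its 18 probe sets for spiked hybridisation controls read on average 3.53 times the vehicle mean, against 0.957 times on IL-1b replicate 2, and its background, the 95th percentile of 27 bacterial control probe sets, was 76.7, against 18.8 on IL-1b replicate 2 and 29.4 and 26.9 on the vehicle arrays. The brightest probe set of IL-1b replicate 1 read 40775, against 15783 on IL-1b replicate 2 and 16974 and 17096 on the vehicle arrays. The 3′ to 5′ ratio of beta-actin was 1.87 and 1.57 in IL-1b replicates 1 and 2, against 1.68 and 1.96 in vehicle. That of GAPDH was 1.32 and 1.04, against 1.16 and 1.29. The control for 5S ribosomal RNA read 296 and 170, against 104 and 91.8. All 6 smooth muscle markers (Acta2, Myh11, Tagln, Cnn1, Smtn and Des) were above background on all 4 arrays, with summed intensities of 11538 and 8627 in IL-1b cells, against 29657 and 30398 in vehicle cells. Of 4 endothelial markers measured, 0 were above background on all arrays, and Pecam1 and Vwf were below it on every array, with sums of 125 and 73.4 in IL-1b cells, against 50.2 and 81.6 in vehicle cells. Of 6 leukocyte and macrophage markers 1 was above background throughout, Itgam was below it throughout, and the sums were 1640 and 1990 in IL-1b cells, against 693 and 659 in vehicle cells. The 4 genes taken as a check of the IL-1 response (Il6, Nfkbia, Cxcl1 and Ccl2) summed to 82285 and 37316 in IL-1b cells, against 4547 and 4465 in vehicle cells. The part of other cells in the results was not tested. In bulk RNA, fewer cells of a type and less RNA per cell cannot be told apart.

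Ribosomal protein transcripts were not called higher or lower with IL-1b, and the 2 IL-1b arrays went in opposite directions. Of the 57 probe sets, 39 were bright, with a mean vehicle intensity of 6086 to 14661. Over these 39, the median intensity was 16398 and 9819 in IL-1b replicates 1 and 2, against 10665 and 10247 in vehicle replicates 1 and 2. IL-1b replicate 1 read 1.58 times the vehicle mean at the median member, with members at 0.911 to 2.27 times. IL-1b replicate 2 read 0.92 times the vehicle mean, with members at 0.797 to 1.02 times. The vehicle arrays differed from each other by a median factor of 1.03 (replicate 1 over replicate 2, 0.955 to 1.11). The share of an array's summed intensity that the 57 probe sets took was 5.18% and 3.47% in IL-1b replicates 1 and 2, against 3.78% and 3.68% in the vehicle arrays.

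**Figure D1:**
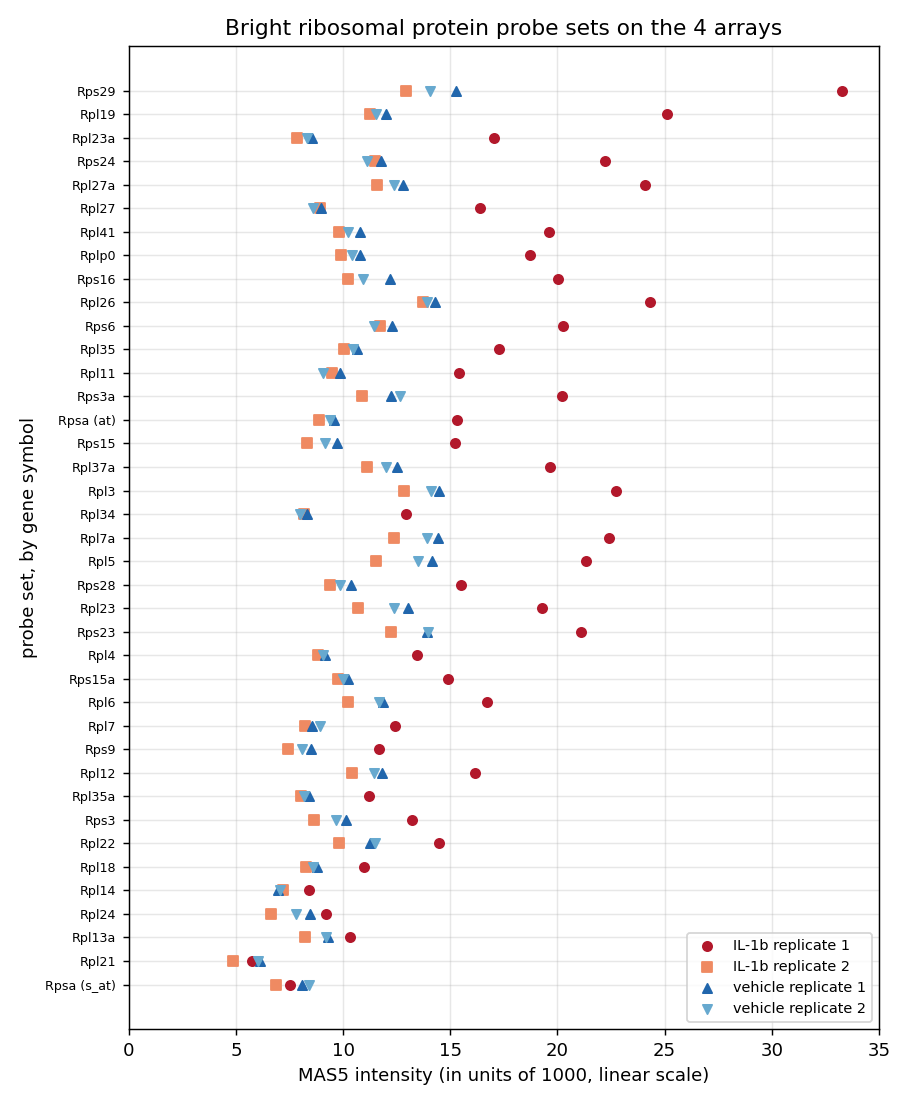
MAS5 intensity (in units of 1000, linear axis) of the 39 bright ribosomal protein probe sets on each of the 4 arrays, 1 point per array, ordered by the ratio of IL-1b replicate 1 to the vehicle mean. IL-1b replicate 1 lies right of both vehicle arrays in 37 of 39 rows, and IL-1b replicate 2 lies left of both in 33.

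For 31 of the 39 bright members IL-1b replicate 1 was above both vehicle arrays while IL-1b replicate 2 was below both. That arrangement was present in 9.39% of all 18625 probe sets tested. Among the 224 bright probe sets that were not ribosomal, with a mean vehicle intensity of 5000 or more, it was present in 67 (29.9%). Both IL-1b arrays lay above both vehicle arrays for 3 of the 49 members tested, against 29.2% of all probe sets, and below both for 3, against 29.1%. The 3 above were both probe sets of Rpl7l1 and the brighter of Rpl14, and the 3 below were Rpl21, a second probe set of Rpsa and the dimmer of Rps24. Rpl14, Rpl21 and Rps24 were picked out after their values were seen.

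In limma's moderated test across all probe sets, 0 of 49 members tested passed an adjusted p of 0.05 in either direction, where 13.4% of all probe sets did. At an unadjusted p of 0.05, 1 member passed, the brighter probe set of Rpl7l1. The other 8 of the 57 probe sets were too dim to be tested. Log2 fold changes (IL-1b minus vehicle, on the scale of log2 of intensity plus an offset of 5.49) were above 0 for 42 of the 49 and below 0 for 7, with a median of 0.26, against 0.02 over all probe sets tested. The 95% intervals of the bright members were wide. The lower bounds had a median of 0.75-fold and the upper bounds, taken separately, a median of 1.91-fold. Over all 39 the bounds reached 0.656-fold and 2.84-fold. These arrays therefore do not settle whether a bright member changed by an amount within its own interval.

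**Figure D2:**
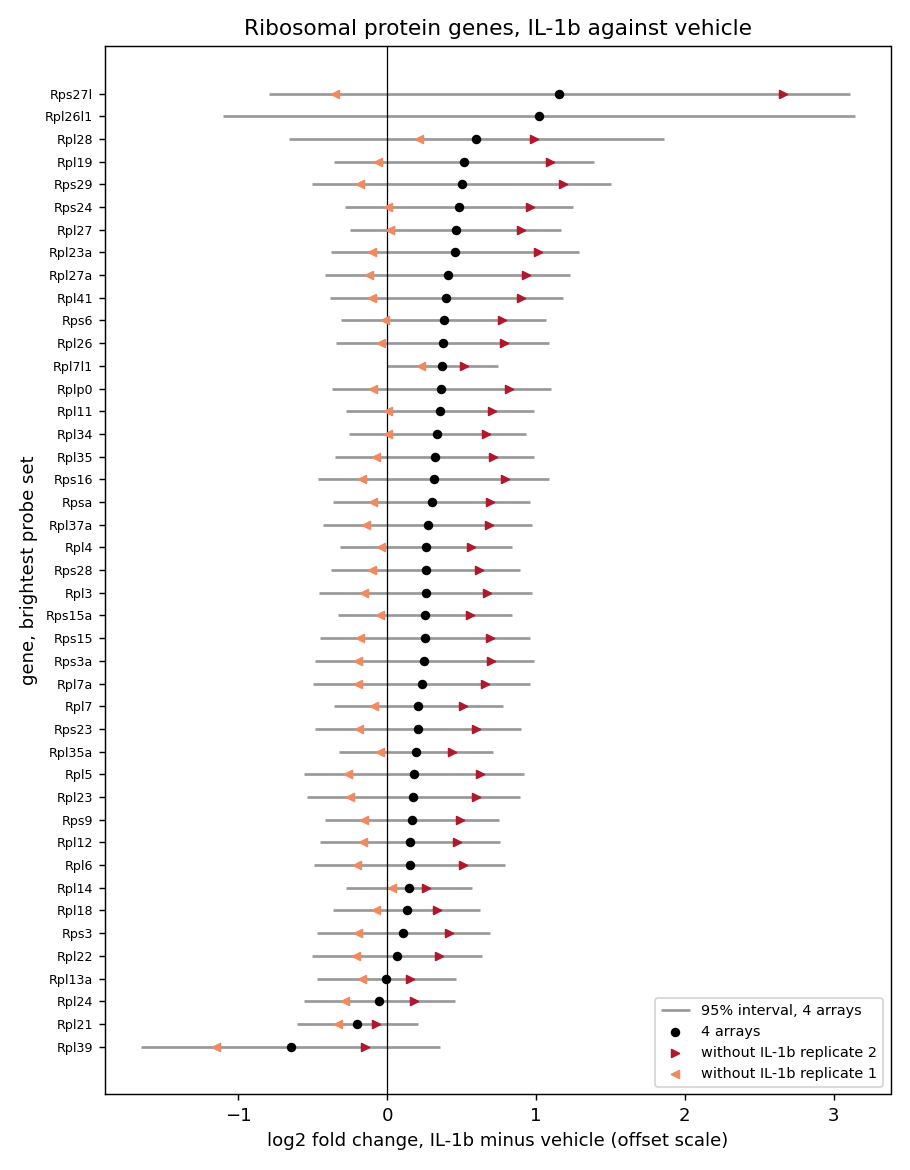
Log2 fold change (IL-1b minus vehicle) of the 43 ribosomal protein genes tested, each at its brightest probe set, with the 95% interval from all 4 arrays (grey line, black point) and the values when 1 IL-1b array was left out (triangles). Leaving out replicate 2 moved the points right and leaving out replicate 1 moved them left, to a median of 0.66 and -0.10 over the 49 probe sets tested in each fit. Rpl26l1 was not tested in these fits and has no triangles.

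Which IL-1b array was kept decided the direction. Without IL-1b replicate 2, 42 of 49 members were called higher, where 22.8% of all probe sets were, and 1 was called lower, where 24.5% were. Without IL-1b replicate 1, 0 were called higher, where 14% of all probe sets were, and 17 lower, where 15.9% were. For 35 members the log2 fold change had opposite signs in these 2 fits. In each of them a single IL-1b array was set against the vehicle pair and assumed to vary as little as that pair, so these counts describe arrays and not the treatment. The intensity filter was applied to the arrays kept, so the members tested were not all the same. Rpl26l1 was in neither fit, Rps13 only in that without IL-1b replicate 1, and a dim probe set of Rpl14 only in that without IL-1b replicate 2. Leaving out a vehicle array gave 1 member higher (replicate 1, a dim probe set of Rpl3) or 0 (replicate 2), and 0 lower.

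Among the bright members, Rps29 of the small subunit and Rpl19 of the large subunit had the highest ratios of IL-1b replicate 1 to the vehicle mean. Rps29, a small zinc-binding protein, read 33299 and 12941 in IL-1b cells, against 15277 and 14045 in vehicle cells. The 2 IL-1b arrays lay on either side of the vehicle pair, at 2.27 and 0.883 times its mean, and the log2 fold change was 0.50 ± 0.42 (SE, limma adjusted p = 0.49). Rpl19, which contributes to a bridge between the subunits, read 25130.3 and 11251 in IL-1b cells, against 11997 and 11521 in vehicle cells. Its log2 fold change was 0.52 ± 0.37 (SE, limma adjusted p = 0.42), with an interval of -0.36 to 1.39. Rpl26, which lies near the exit of the peptide tunnel, read 24301 and 13726 in IL-1b cells, against 14303 and 13913 in vehicle cells. IL-1b replicate 2 was 0.973 times the vehicle mean there. Rpl3, which reaches towards the catalytic centre, read 22748 and 12833 in IL-1b cells, against 14457 and 14110.1 in vehicle cells, and Rpl7a read 22403 and 12377 in IL-1b cells, against 14435 and 13911 in vehicle cells. Both had IL-1b replicate 1 far above the vehicle arrays and IL-1b replicate 2 below them. Rps23, a protein of the decoding centre, read 21105 and 12235 in IL-1b cells, against 13916 and 13945 in vehicle cells, in the same arrangement.

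Rpl21 and Rpl13a lay at the other end. Rpl21 read 5773 and 4849.9 in IL-1b cells, against 6125 and 6046 in vehicle cells. Both IL-1b arrays were below both vehicle arrays, and the log2 fold change was -0.20 ± 0.17 (SE, limma adjusted p = 0.49). Leaving out IL-1b replicate 1 gave -0.33, and leaving out the other IL-1b array gave -0.08. Rpl13a, which in human monocytes leaves the ribosome to silence inflammatory transcripts after interferon gamma, read 10309 and 8235 in IL-1b cells, against 9308 and 9190.1 in vehicle cells. The groups overlapped, the log2 fold change was -0.01 ± 0.20 (SE, limma adjusted p = 0.99) and its interval was -0.47 to 0.46.

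By subunit, the 25 bright large-subunit probe sets read a median of 1.54 times (IL-1b replicate 1) and 0.931 times (IL-1b replicate 2) the vehicle mean, and the 13 of the small subunit 1.61 times and 0.887 times. Both sets therefore split in the same way between the IL-1b arrays. The stalk protein Rplp0, which anchors the site where elongation factors dock, was the only P protein with a probe set of its own. Rplp0 read 18699 and 9915 in IL-1b cells, against 10774 and 10393 in vehicle cells, with a log2 fold change of 0.36 ± 0.31 (SE, limma adjusted p = 0.50). Over the 39 bright probe sets the ratio on IL-1b replicate 1 went with vehicle intensity (Pearson r = 0.50, Spearman rho = 0.49) and with the ratio of the vehicle arrays to each other (0.45 and 0.47). These are descriptions over probe sets that share 4 arrays, and the vehicle values enter both sides.

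Rpl5 and Rpl11 form a particle with 5S ribosomal RNA and, when ribosome assembly fails, bind Mdm2, the ligase that holds p53 down. Rpl5 read 21310.4 and 11530.3 in IL-1b cells, against 14144 and 13499 in vehicle cells. IL-1b replicate 2 was 0.834 times the vehicle mean and the log2 fold change was 0.18 ± 0.31 (SE, limma adjusted p = 0.75). Rpl11 read 15397 and 9461 in IL-1b cells, against 9843 and 9043 in vehicle cells, with IL-1b replicate 2 between the vehicle arrays and a log2 fold change of 0.36 ± 0.27 (SE, limma adjusted p = 0.44). Rpl23, another Mdm2 binder, read 19259 and 10681 in IL-1b cells, against 13009.6 and 12394 in vehicle cells. For Rpl5 and Rpl23 IL-1b replicate 2 was below both vehicle arrays, and the difference of Rpl11 from them was not tested.

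Other members are known for work outside the ribosome. Rps3, which in human T cells was found in NF-kB complexes, read 13225 and 8650.0 in IL-1b cells, against 10145 and 9683 in vehicle cells, and its log2 fold change was 0.11 ± 0.25 (SE, limma adjusted p = 0.81). Rps6, the substrate of the S6 kinases downstream of mTOR, read 20261 and 11735 in IL-1b cells, against 12299.7 and 11422 in vehicle cells, with a log2 fold change of 0.38 ± 0.29 (SE, limma adjusted p = 0.44). Rpl22, which also binds viral RNAs, read 14453 and 9819 in IL-1b cells, against 11248 and 11497 in vehicle cells, with a log2 fold change of 0.07 ± 0.24 (SE, limma adjusted p = 0.88). IL-1b replicate 1 was above both vehicle arrays in all 3. IL-1b replicate 2 was below both for Rps3 and Rpl22 and between them for Rps6. Rpsa, a small-subunit protein also known as the precursor of a laminin receptor, had 3 probe sets that disagreed. The brightest read 15319 and 8889 in IL-1b cells, against 9584 and 9392 in vehicle cells. The second read 7504 and 6882 in IL-1b cells, against 8066 and 8407 in vehicle cells, with both IL-1b arrays below the vehicle arrays. The third read 1498 and 1353 in IL-1b cells, against 1529 and 1427 in vehicle cells. Their log2 fold changes were 0.30, -0.20 and -0.05, and 0 of 3 passed. On IL-1b replicate 1 they stood at 1.61, 0.911 and 1.01 times the vehicle mean.

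Of the 18 dimmer probe sets, 9 were above background on all 4 arrays, and 4 had IL-1b replicate 1 above and IL-1b replicate 2 below both vehicle arrays. That arrangement was present in 9.39% of all probe sets tested, while the 18 include the 8 too dim to be tested. Among the paralogs, Rpl7l1, a protein related to Rpl7 that acts in ribosome assembly, had 2 probe sets. The brighter read 1408 and 1148 in IL-1b cells, against 988 and 975 in vehicle cells, and the other read 948 and 812 in IL-1b cells, against 758 and 721 in vehicle cells. In both probe sets both IL-1b arrays lay above both vehicle arrays, as for 29.2% of all probe sets tested. Their log2 fold changes were 0.37 ± 0.16 (SE, limma adjusted p = 0.18) and 0.24 ± 0.15 (SE, limma adjusted p = 0.35), so neither passed. With IL-1b replicate 1 left out the brighter gave 0.22, and with replicate 2 left out it gave 0.52, so here the IL-1b arrays went the same way.

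Rps27l, a paralog of Rps27 that p53 induces in human cells, read 1935 and 236 in IL-1b cells, against 294 and 310.1 in vehicle cells. IL-1b replicate 1 was 6.41 times the vehicle mean while IL-1b replicate 2 was 0.782 times, and the log2 fold change was 1.16 ± 0.82 (SE, limma adjusted p = 0.41). A second probe set of Rpl7 behaved likewise, with 1463 and 108 in IL-1b cells, against 131 and 159 in vehicle cells. IL-1b replicate 1 was 10.1 times the vehicle mean there, while the bright probe set of Rpl7 on the same array was 1.42 times. In both, the high value was that of IL-1b replicate 1 alone, and Rpl7 was singled out after its values were seen.

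Rpl39, which lines the peptide tunnel, read 171 and 82.7 in IL-1b cells, against 144 and 249.7 in vehicle cells. Its log2 fold change was -0.65 ± 0.42 (SE, limma adjusted p = 0.37), the lowest of the 43 genes tested, and the vehicle arrays themselves differed from each other. Rpl28 read 111 and 62.6 in IL-1b cells, against 37.7 and 74.4 in vehicle cells at its 1 probe set with a single symbol. Rpl26l1, a copy of Rpl26, read 80.5 and 35.6 in IL-1b cells, against 53.7 and 9.03 in vehicle cells. For Rpl26l1 only 3 of the 4 values were above background. Rps24 read 22232 and 11499.9 in IL-1b cells, against 11764 and 11130.3 in vehicle cells at its bright probe set, and a dim probe set read 170.4 and 237 in IL-1b cells, against 251 and 253 in vehicle cells, so their log2 fold changes of 0.48 and -0.32 disagreed in sign and neither passed. Probe sets for Rpl30, Rps13, Rpl3l, Rpl39l1, Rps4y2, Rpl37-ps2, Rps4x-ps1 and a second one of Rpl14 were the 8 too dim to be tested, with intensities from 1.06 to 68.2 over the 4 arrays. Rpl37-ps2 and Rps4x-ps1 are annotated as transcribed pseudogenes in RefSeq.

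A further 36 probe sets carry several symbols with at least 1 ribosomal name among them and are not named here. All 36 were tested and 0 passed, where 13.4% of all probe sets tested did, with 0 of the 36 at an unadjusted p of 0.05. Their median ratio to the vehicle mean was 1.59 for the first IL-1b array and 0.93 for the second. Of the 36, 27 had IL-1b replicate 1 above and IL-1b replicate 2 below both vehicle arrays. That arrangement was present in 9.39% of all probe sets tested and in 29.9% of the bright ones that were not ribosomal. These values are close to those of the bright members, and where copies share probes, signal cannot be assigned between them.

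Among probe sets with a mean vehicle intensity of 100 or more, the split was most frequent in the brightest group. Dimmer probe sets were not binned, and the share over all probe sets tested was 9.39%. Probe sets that were not ribosomal had a median ratio of IL-1b replicate 1 to the vehicle mean of 0.958 at vehicle intensities of 100 to 500 (8129 probe sets), 0.836 at 500 to 1000 (2471), 0.845 at 1000 to 5000 (2239) and 1.08 from 5000 (224). The arrangement with the IL-1b arrays on either side of the vehicle pair was present in 6.59%, 3.84%, 5.31% and 29.9% of them in the same order. The 25th and 75th percentiles of the last group were 0.699 and 1.61, and the bright ribosomal members had a median of 1.58. On IL-1b replicate 2 the medians in the same order were 1.00, 0.962, 0.921 and 0.836. Among the bright ribosomal members the SD of the ratio was 0.296 for IL-1b replicate 1 and 0.0577 for the other IL-1b array. The hybridisation controls were high on the same array, and their part in the result was not tested.

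**Figure D3:**
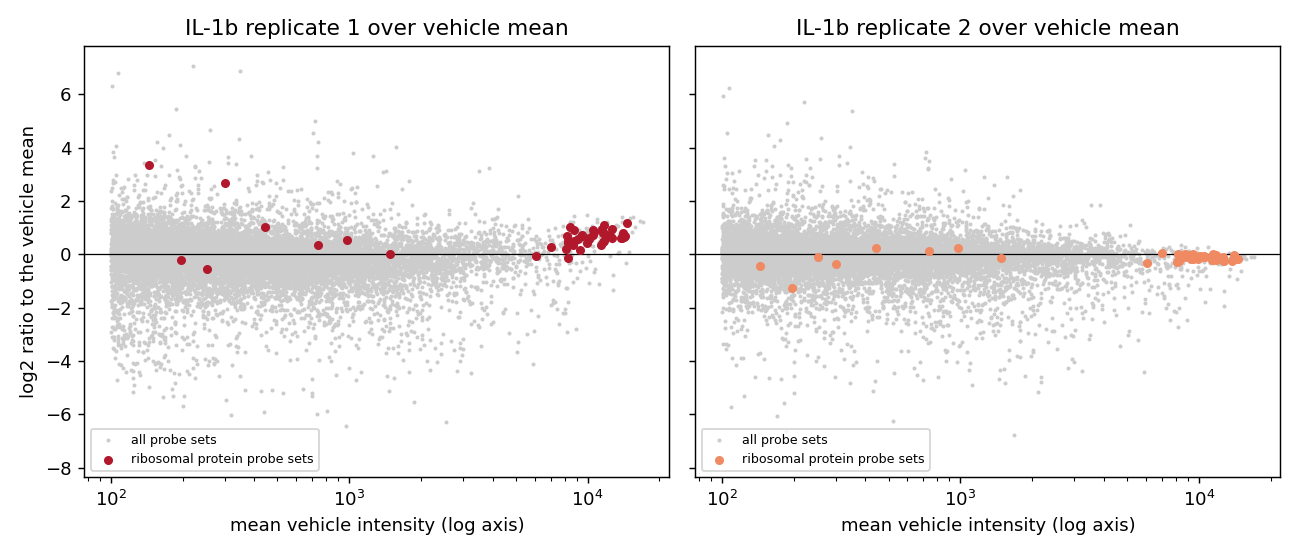
Log2 ratio of each IL-1b array to the mean of the vehicle arrays against mean vehicle intensity (log axis, probe sets from 100 upward), for all probe sets (grey) and ribosomal protein probe sets (colour). The bright ribosomal cluster lies mostly above 0 in the panel of IL-1b replicate 1, and at or just below 0 in that of the other IL-1b array.

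Scaling changed the level of the ribosomal proteins on IL-1b replicate 1 more than on any other array. With the deposited scaling the median of the 49 members tested was 0.66 above the vehicle mean on the log2 scale for IL-1b replicate 1, while that of the other IL-1b array was -0.10. After centring each array on its median these became 0.21 and -0.06, and the median log2 fold change of all probe sets moved to -0.19 under that centring, so the members' median of 0.05 lay above it. After quantile normalization, which gives every array the same distribution, the IL-1b arrays were at -0.04 and -0.02. The median log2 fold change of the members was then -0.02, against -0.03 for all probe sets, 28 of 49 were below 0, and 0 passed.

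**Figure D4:**
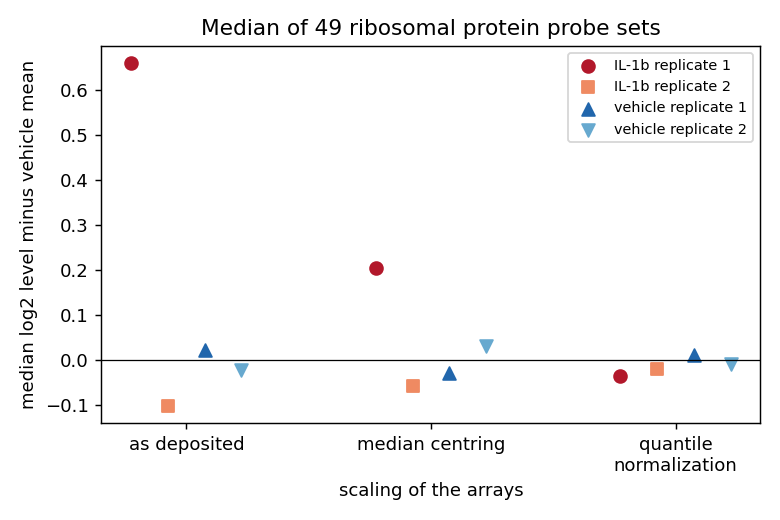
Median log2 level of the 49 ribosomal protein probe sets tested, minus their mean over the vehicle arrays, on each array under 3 scalings. IL-1b replicate 1 is at 0.66 as deposited, 0.21 after median centring and -0.04 after quantile normalization, while the other arrays stay between -0.10 and 0.03.

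Genes that work with the ribosome were counted for comparison. Of 10000 genes tested, 7.19% were called higher with IL-1b and 8.13% lower. Of 11 other TOP transcripts tested, 0 rose, 0 fell and 11 did not pass, with a median log2 fold change of 0.12. Their log2 fold changes ran from -0.33 for Eif3h, a subunit of an initiation factor, to 0.58 for Eef1a1, which brings transfer RNAs to the ribosome. Eif3h read 3969.6 and 3184 in IL-1b cells, against 4344 and 4601 in vehicle cells, with both IL-1b arrays below both vehicle arrays. That arrangement was present in 4 of the 11, against 29.1% of all probe sets tested. Eef1a1 read 25145 and 10571 in IL-1b cells, against 11640.4 and 10271 in vehicle cells, with IL-1b replicate 1 above both vehicle arrays and IL-1b replicate 2 between them. The arrangement of most bright ribosomal proteins, with replicate 1 above and replicate 2 below both vehicle arrays, was present in 3 of the 11. It was present in 9.39% of all probe sets tested and in 29.9% of the bright ones that were not ribosomal. Of the 11, 0 had both IL-1b arrays above both vehicle arrays, against 29.2% of all probe sets tested. Of 30 initiation factors 2 rose, 0 fell and 28 did not pass (median 0.03), of 41 ribosome assembly genes 2 rose, 0 fell and 39 did not pass (median 0.18), of 14 genes of mTOR and Myc control 2 rose, 0 fell and 12 did not pass (median 0.16), and of 73 mitochondrial ribosomal proteins 2 rose, 2 fell and 69 did not pass (median -0.04). The share called higher was below that of all genes in each list except the mTOR and Myc list.

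Among those that passed, Eif4a1, the RNA helicase of the cap-binding complex, read 8455 and 6020.2 in IL-1b cells, against 3813 and 3534 in vehicle cells and rose by 0.96 ± 0.21 (SE, limma adjusted p = 0.024) on the log2 scale, the scale of the changes that follow. Eif6, which keeps the subunits apart until they are mature, read 1714 and 1654 in IL-1b cells, against 1106 and 1135 in vehicle cells and rose by 0.59 ± 0.13 (SE, limma adjusted p = 0.032). In ribosome assembly, Gar1, of the particles that modify ribosomal RNA, read 622 and 599 in IL-1b cells, against 319 and 323 in vehicle cells and rose by 0.91 ± 0.16 (SE, limma adjusted p = 0.011). Bop1, needed for the large subunit, read 479 and 415 in IL-1b cells, against 241 and 276 in vehicle cells and rose by 0.78 ± 0.19 (SE, limma adjusted p = 0.038). The mTOR inhibitor Ddit4 read 891 and 1732 in IL-1b cells, against 365 and 428 in vehicle cells and rose by 1.64 ± 0.30 (SE, limma adjusted p = 0.013), and Akt1s1, an inhibitory subunit of the mTOR complex, read 1292 and 1208 in IL-1b cells, against 765 and 721 in vehicle cells and rose by 0.75 ± 0.14 (SE, limma adjusted p = 0.015). Both IL-1b arrays lay above both vehicle arrays for these 6 genes, as for 29.2% of all probe sets tested. The 6 were named because they passed on the same arrays, so this adds no support. Akt1s1 has 3 probe sets, and with their mean in place of the brightest it did not pass (limma adjusted p = 0.091).

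Of the mitochondrial ribosomal proteins, Mrps6 read 468 and 625 in IL-1b cells, against 1016 and 986 in vehicle cells and Mrpl18 read 548 and 727 in IL-1b cells, against 1136 and 1102 in vehicle cells. Both fell, with log2 fold changes of -0.88 ± 0.18 (SE, limma adjusted p = 0.021) and -0.82 ± 0.18 (SE, limma adjusted p = 0.025). Mrps18b read 724 and 788 in IL-1b cells, against 523 and 436 in vehicle cells, and Mrpl23 read 1941 and 1713 in IL-1b cells, against 1192 and 1249 in vehicle cells. Both rose, by 0.66 ± 0.16 (SE, limma adjusted p = 0.043) and 0.58 ± 0.14 (SE, limma adjusted p = 0.042). With a robust prior Mrps18b did not pass (limma adjusted p = 0.052). Over the 5 lists 8 genes rose and 2 fell. A fit without 1 array leaves a single array in a group, so its calls describe arrays and not the treatment. With either vehicle array left out, Ddit4 was the only gene of the lists that remained. With no intensity trend in the variance 0 rose and 0 fell, while the calls over all 18625 probe sets went from 2503 to 963. With median centring 1 rose and 0 fell, with Eif4a1 the gene that remained, and the calls over all probe sets were 1634.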

How the data were processed

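Total RNA of 2 IL-1b and 2 vehicle samples was labelled with biotin and hybridised to 1-colour Affymetrix arrays, per the labels' protocols. The authors deposited 1 intensity per probe set, computed with MAS5 per the submitters' processing notes, which name no version or settings here. Detection calls were not used here. The number of arrays limits the precision.

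Intensities had 5.49 (their 10th percentile) added and were turned to log2. After dropping 57 control probe sets, those at or above the 40th percentile of mean log2 (5.37) were tested, 18625 in all. The model was limma's, version 3.58.1, run under R 4.3.3 (lmFit, eBayes with an intensity trend, 2 residual and 4.91 prior degrees of freedom), with Benjamini-Hochberg adjustment over all of them. A gene is its brightest probe set with 1 symbol. Symbols came from the platform annotation, and 48 of the 50 member symbols matched a current RefSeq gene by identifier, unchanged. Bright means a mean vehicle intensity above 5000.

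Members, lists and named genes were chosen with earlier results of these data known. Named are the 5 brightest and 5 dimmest genes tested, paralogs, P proteins, Mdm2 binders, members with roles outside the ribosome, called members (0 here) and up to 4 called genes per translation list. Rpl7, Rpl14, Rpl19, Rpl21, Rpl27a, Rps24, Eif3h, Eef1a1 and the untested Rpl30 and Rps13 fall outside this rule and were named after their values were seen. The procedure was also run on simulated data, with independent noise for each probe set and array and no shift of a whole array. That run cannot show how the procedure handles such a shift, and no result here rests on it. Alternatives were other offsets, scalings, filters, variance models, the replicate block, the mean of a gene's probe sets, and leaving out each array.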

Additional observations from a re-analysis of the deposited data

How the results depend on the processing

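The count of 0 members called in either direction held under every alternative for offset, scaling, filter, variance model and the mean of a gene's probe sets, with an unadjusted p under 0.05 for 0 to 7 of them. Exceptions were the replicate block, with 1 probe set higher and 0 lower, and the fits without 1 array. Leaving out each array in turn gave 0 to 42 probe sets higher and 0 to 17 lower, and 0 to 39 genes higher and 0 to 16 lower. The highest counts came from the fits without an IL-1b array, and leaving out a vehicle array gave at most 1, a second probe set of Rpl3. Same-numbered samples were not paired by the labels, and their deviations from the group means correlated at 0.09 over all probe sets and -0.05 over members. Such a correlation cannot show whether same-numbered samples were handled together, which was not tested. Over the 5 translation lists, 8 genes higher and 2 lower became 1 and 0 under median centring, 0 and 0 without the intensity trend, 4 lower under quantile normalization and 4 lower with the replicate block. Leaving out 1 array gave 1 to 46 higher and 0 to 28 lower. The level of the members on IL-1b replicate 1 moved to -0.037 under quantile normalization. The cause of these changes was not tested.

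Signs of uncalled members turned with the processing. Under quantile normalization the log2 fold change was -0.24 for Rpl22, -0.22 for Rpl5 and Rpl3, -0.20 for Rpl23 and Rps23, -0.17 for Rpl7a, -0.16 for Rps3, -0.064 for Rps29 and -0.051 for Rpl26. Under median centring it was -0.14 for Rpl22, -0.095 for Rps3, -0.029 for Rpl23 and -0.023 for Rpl5. Over the fits without 1 array the range was -0.17 to 0.16 for Rpl13a, -0.21 to 0.35 for Rpl22, -0.25 to 0.60 for Rpl23, -0.039 to 0.78 for Rpl26, -0.15 to 0.67 for Rpl3, -0.26 to 0.62 for Rpl5, -0.20 to 0.66 for Rpl7a, -0.094 to 0.82 for Rplp0, -0.19 to 0.60 for Rps23, -0.35 to 2.66 for Rps27l, -0.18 to 1.18 for Rps29, -0.20 to 0.42 for Rps3, -0.014 to 0.77 for Rps6 and -0.094 to 0.69 for Rpsa. No direction was reversed for the 10 genes named from the translation lists, and over fits on all arrays 79 of their values stayed past the threshold and 21 missed it.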
